A study of Mus musculus with 2 samples.

Results

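The nuclei described here were myelinating Schwann nuclei of the mouse vagus nerve ganglia that carried UMIs (unique molecular identifiers, 1 per captured RNA molecule) of at least some of 5 further genes. They were chosen on their own counts. A nucleus first had to hold at least 4 UMIs, and at least 15 per 10000 of its UMIs, of 9 myelin-related genes (Prx, Ncmap, Dusp15, Cldn19, Ugt8a, Pllp, Mag, Drp2 and Fam178b). It then had to hold at least 2 UMIs summed over Adamtsl1, Erbb4, Pmp2, Shc4 and Ankfn1, which is called the second sum. Of 8714 nuclei, 1004 passed the first step and 797 of these passed both. The 797 are called members, and the 207 with a second sum of 0 or 1 are called low nuclei.

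Members came from both libraries of the study, 366 from the female and 431 from the male library. The female library was 1 pool of 14 ganglia taken from 7 mice, and the male library was 1 pool of 16 ganglia taken from 8 mice. All mice were C57BL/6J of the genotype Rosa26-floxed-STOP-Cas9-eGFP on a standard chow diet, and all had received AAVrg-Cre, a retrogradely transported virus carrying Cre recombinase, in the liver 4 weeks earlier. The 3791 female and 4923 male nuclei held 17435300 and 27529730 UMIs. No other group was analysed here, and the animals within a pool cannot be told apart. With 1 library of each sex, and with nuclei chosen on the counts that are compared, no test was made and p-values are left out. Intervals are 95% intervals that cover counting error only.

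Myelinating Schwann cells each wrap 1 segment of 1 peripheral axon in a compacted spiral of membrane. Their program is driven by the transcription factors Sox10 and Egr2, and neuregulin on the axon drives it through the receptors Erbb2 and Erbb3 on the Schwann cell. Erbb4 is a further neuregulin receptor, Shc4 is an adaptor protein of the Shc family that binds activated receptor tyrosine kinases, Pmp2 (also named Fabp8) is the fatty acid-binding protein of peripheral myelin, and Adamtsl1 is a secreted relative of the ADAMTS proteases without protease activity. Ankfn1 codes for a protein with ankyrin repeats and a fibronectin type III domain.

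The promoter windows of Erbb4 and Shc4 are shown because these are the signalling genes of the second sum, and that of Spp1 because it was one of the genes outside the rule that differed between members and low nuclei. Each run holds the 250 bases before a RefSeq transcription start on GRCm38.p6 (the same assembly as mm10), 5′ to 3′ on the strand of the gene. Capitals mark matches, on either strand, to ACAAAG (the core of SOX sites), GCGTGGGCG (the EGR site) or TATAAA, which do not overlap each other here. The Erbb4 run is chr1:69108060-69108309 on the minus strand, the Shc4 run chr2:125724149-125724398 on the minus strand and the Spp1 run chr5:104434861-104435110 on the plus strand.
Erbb4: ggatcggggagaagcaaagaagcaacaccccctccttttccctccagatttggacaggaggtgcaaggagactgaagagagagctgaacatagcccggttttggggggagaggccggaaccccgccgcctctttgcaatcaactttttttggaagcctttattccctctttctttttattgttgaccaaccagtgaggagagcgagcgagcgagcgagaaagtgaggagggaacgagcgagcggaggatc
Shc4: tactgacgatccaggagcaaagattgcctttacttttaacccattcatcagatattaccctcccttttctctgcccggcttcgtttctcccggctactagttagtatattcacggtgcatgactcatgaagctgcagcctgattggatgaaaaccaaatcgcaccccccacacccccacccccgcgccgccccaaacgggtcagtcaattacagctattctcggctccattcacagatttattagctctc
Spp1: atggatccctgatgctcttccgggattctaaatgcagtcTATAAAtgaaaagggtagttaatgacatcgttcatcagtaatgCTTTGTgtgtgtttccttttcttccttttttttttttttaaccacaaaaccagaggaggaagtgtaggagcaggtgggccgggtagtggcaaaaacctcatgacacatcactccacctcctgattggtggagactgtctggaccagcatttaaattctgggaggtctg
None of the 3 letter strings was in the windows of Erbb4 and Shc4, which were searched to 50 bases after the start. Spp1 has 2 windows in the table. The one shown held TATAAA from base 40 and ACAAAG, on the other strand, from base 83, counted from 1 at the 5′ end, and the other (chr5:104435942-104436241) held ACAAAG on the other strand from base 8 and no TATAAA. Among 32851 promoter windows of the same length, 18.7% held ACAAAG, 0.612% held GCGTGGGCG and 13.6% held TATAAA. Of the 20 genes outside the rule that are named below as higher in members, 17 had at least 1 window in the RefSeq table.

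Myelin marker genes that the rule did not use were several-fold higher in members than in the nuclei that failed the first step, and closer to members in low nuclei. Levels are UMIs per 10000 UMIs of a sum over nuclei. Pmp22, the peripheral myelin protein that is duplicated in the commonest inherited demyelinating neuropathy, was at 34.6 in female and 36.7 in male members at 23.3 and 22.6 in low nuclei, and at 2.87 and 3.57 in the nuclei that failed the first step. Mbp, which holds the cytoplasmic faces of myelin together, was at 17.9 and 13.8 in members, 17.1 and 12.1 in low nuclei and 1.77 and 1.35 in the nuclei that failed. Sox10 was at 1.97 and 1.64 in members, at 1.81 and 1.10 in low nuclei and at 0.332 and 0.260 in the nuclei that failed the first step. Markers of oligodendrocytes, the myelin-forming cells of the central nervous system, were scarce in members, whose female and male sums held 1130529 and 1411501 UMIs. Tspan2 had 23 and 38 UMIs there, Cldn11 22 and 23, Mobp 12 and 25, Mog 2 and 10 and Opalin 1 and 0. The oligodendrocyte list of 12 genes summed to 0.699 (0.553 to 0.871) and 0.843 (0.698 to 1.01) in members, to 0.615 (0.578 to 0.655) and 0.613 (0.584 to 0.644) in the nuclei that failed the first step and to 1.45 and 0.722 in low nuclei.

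The genes of the second sum differed in how many members had a UMI of them. Adamtsl1 had a UMI in 230 of the 797 members (28.9%), Erbb4 in 282 (35.4%) and Pmp2 in 75 (9.41%). Shc4 had a UMI in 670 (84.1%) and Ankfn1 in 701 (88.0%). Adamtsl1 or Erbb4 had a UMI in 364 members (45.7%) and both in 148 (18.6%), while Shc4 or Ankfn1 had one in 782 (98.1%). Ankfn1 gave 42.2% and Shc4 28.5% of all UMIs of the second sum, and Pmp2 gave 2.11%. At the members' median depth of 2303.5 UMIs for the female and 2386 for the male library, a nucleus without a UMI of a gene is not shown to lack its RNA. A single one of the 5 genes made up the second sum in 132 members, 2 genes in 355, 3 in 164, 4 in 106 and all 5 in 40.

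**Figure D1:**
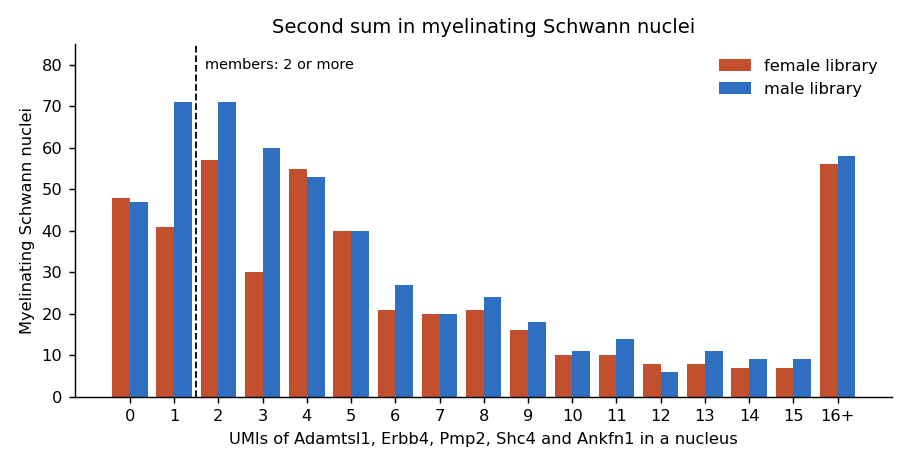
Number of myelinating Schwann nuclei (vertical axis) at each second sum, the UMIs of Adamtsl1, Erbb4, Pmp2, Shc4 and Ankfn1 in a nucleus (horizontal axis, the last bar pooling 16 and more), in the female and male library; the dashed line is the threshold of the rule. Counts run on across the threshold without a gap, with 41 female and 71 male nuclei at 1 UMI, 57 and 71 at 2 UMIs and 56 and 58 at 16 or more.

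Every second sum from 0 to 15 UMIs was found in both libraries, as the plot of nuclei by second sum shows, and the highest was 74 in female and 72 in male members. It was 0 in 48 female and 47 male nuclei, 1 in 41 and 71, and 2 in 57 and 71, so the threshold of the rule cut through a continuous distribution. The median was 6 UMIs in female and 5 in male members. Just inside the threshold, nuclei with a second sum of 2 had Prx at 7.38 and 4.70 and Slit3 at 2.11 and 1.65 in the female and male library. Just outside it, nuclei with a sum of 1 had Prx at 7.27 and 5.49 and Slit3 at 0.954 and 0.784.

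Members made up 80.4% of the female nuclei that passed the first step (366 of 455, Clopper-Pearson interval 76.5 to 84.0%) and 78.5% of the male ones (431 of 549, 74.8 to 81.9%). They were 9.65% of all female nuclei and 8.75% of all male nuclei. The rule asks for a number of UMIs, and the share was higher in deeper nuclei. It was 61.4% in female and 51.3% in male nuclei with under 1500 UMIs, 81.6% and 80.7% between 2000 and 3000 UMIs, and 97.4% and 93.3% from 5000 UMIs. Members had a median of 2303.5 UMIs for the female and 2386 for the male library, and low nuclei 1645 and 1894.5. When each nucleus was thinned to 1000 UMIs, with thresholds of 2 UMIs for the first and 1 for the second step, the share was 73.9% and 68.3%. The thinning left out 19 female nuclei, 1 of them a member.

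The genes of the rule, whose values chose the members, are described first. Adamtsl1 (chr4:85514172-86428385) was at 3.18 in female and 3.08 in male members and at 0.242 and 0.152 in low nuclei. Erbb4 (chr1:68032186-69108059) was at 4.25 and 4.46 in members and at 0.242 and 0.0760 in low nuclei. Pmp2 (chr3:10179851-10183929) was at 0.486 and 0.659 in members and had 0 UMIs in low nuclei, a level at least 2.68-fold and 5.78-fold higher when the low sum is set at a floor of 3 UMIs. The low values in low nuclei are what the rule asks for, and in the nuclei that failed the first step Erbb4 was at 1.22 and 0.208. Shc4 (chr2:125627447-125724148) was at 8.74 and 7.17 in members and at 1.27 and 1.06 in low nuclei. Ankfn1 (chr11:89390223-89777653) was at 13.2 and 10.3 in members and at 0.725 and 1.41 in low nuclei. These coordinates are from GENCODE on mm10, and all 5 genes are protein-coding.

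All members and low nuclei had to hold a minimum of the 9 genes of the first step, so their levels in these classes are set by the rule as well. None was 1.5-fold higher or lower in both libraries. Prx, the gene of periaxin, which links the Schwann cell membrane to the basal lamina, was at 7.39 in female and 5.92 in male members and at 8.03 and 5.28 in low nuclei. Dusp15, a phosphatase gene, had a log2 ratio of members over low nuclei of 0.39 for the female and 0.74 for the male library. The others lay between -0.60 (Mag in females) and 0.35 (Cldn19 in females and Fam178b in males). The median over the 9 genes was 0.16 and 0.17.

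**Figure D2:**
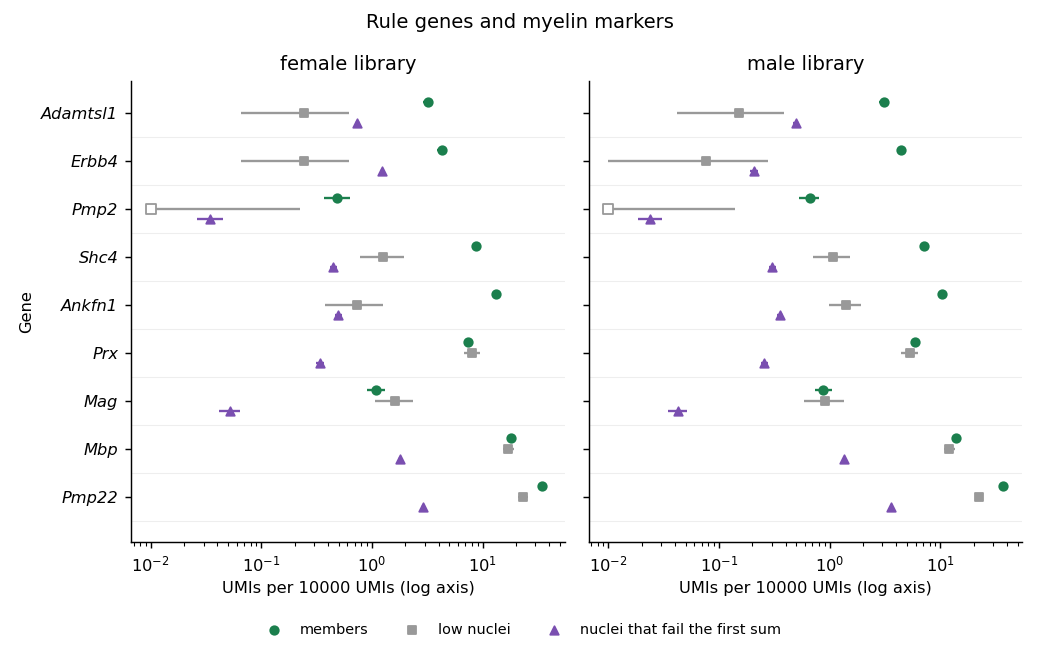
Level in UMIs per 10000 UMIs (horizontal log axis) of the 5 genes of the second sum, 2 genes of the first step and 2 myelin markers outside the rule, in members, low nuclei and nuclei that failed the first step, in each library; lines are 95% Poisson intervals and open symbols, drawn at 0.01, mark sums with 0 UMIs. Members and low nuclei lie closer together for Prx, Mag, Mbp and Pmp22 and far apart for the 5 genes of the second sum.

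Because a sum over 5 genes raises each of them in members, each gene was also compared after the nuclei had been divided on the other 4 genes alone. All 5 were then still higher in nuclei with 2 or more UMIs of the other 4 genes, by unequal amounts. These nuclei were also deeper, for Shc4 at a median of 2487 and 2506.5 UMIs against 1790 and 1923. The log2 ratio was 1.496 in the female (interval 0.88 to 2.26) and 2.79 in the male library (2.02 to 3.81) for Adamtsl1, and 1.88 (1.28 to 2.61) and 1.20 (0.81 to 1.64) for Erbb4. For Pmp2 it was 2.43 (0.46 to 8.33) and 3.56 (1.62 to 9.45), each against 1 UMI in the nuclei that were low by the other 4 genes. For Shc4 it was 0.52 (0.31 to 0.75) and 0.66 (0.45 to 0.88), and for Ankfn1 0.78 (0.59 to 0.98) and 0.70 (0.53 to 0.88). Adamtsl1, Erbb4 and Pmp2 were thus at least 2-fold higher in both libraries in nuclei with 2 or more UMIs of the other genes, and Shc4 and Ankfn1 less than 2-fold. The divisions were not alike, however. Leaving out Shc4 made 169 female and 211 male nuclei low, and leaving out Ankfn1 173 and 237. For each of the other genes these were 90 to 98 female and 119 to 130 male nuclei. The sizes of the ratios can therefore not be compared between genes.

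Pairs of genes were also compared among all nuclei that passed the first step, without the second. Erbb4 had a UMI in 57.8% of the 102 female nuclei with Adamtsl1 and in 18.7% of the 353 without it. In the male library these shares were 65.4% of 136 and 17.9% of 413. Nuclei with Adamtsl1 were deeper, at a median of 3084.5 and 3099.5 UMIs against 1930 and 2068. After thinning to 1000 UMIs the shares were 40.3% against 11.5% for the female and 48.1% against 13.1% for the male library. Ankfn1, thinned in the same way, had a UMI in 80.6% against 52.7% and in 74.0% against 50.2% of these nuclei, and Shc4 in 59.7% against 49.6% and in 58.4% against 43.9%. Divided by Ankfn1 instead, Erbb4 had a thinned UMI in 23.0% of the nuclei with it against 5.58% for the female and 23.8% against 11.4% for the male library, and Adamtsl1 in 19.5% against 6.09% and 19.4% against 7.84%. Ankfn1 thus also went with Adamtsl1 and Erbb4. Prx, divided by Adamtsl1, had a UMI in 66.1% against 54.2% and in 50.6% against 47.9%. For comparison, Erbb4 had a thinned UMI in 5.88% of 119 female and 0 of 80 male nuclei chosen on macrophage markers (a count of 3 would be 3.75%, and the Clopper-Pearson upper limit is 4.51%). Adamtsl1 had one in 1.68% and 3.75% of them. Whether these UMIs came from free RNA was not tested. The macrophage-marker nuclei had a median of 1891 and 1796.5 UMIs before thinning. In nuclei chosen on satellite glia markers, Erbb4 had a thinned UMI in 9.24% of 768 female and 2.70% of 1258 male nuclei, and Adamtsl1 in 4.04% and 3.90%. In the nuclei that failed the first step, the shares were 9.70% and 2.01% for Erbb4 and 6.09% and 5.88% for Adamtsl1.

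Genes outside the rule were then compared between members and low nuclei. This is the contrast that the rule made, so the values describe it. Of 9571 genes with at least 40 UMIs over the 4 sums, 131 (1.37%) were at least 2-fold higher in members in both libraries, 5 of them being the genes of the second sum. At least 2-fold lower were 58 (0.606%), a count that was 120, with 12 of the 58 among them, in nuclei of 2000 to 8000 UMIs. Counts of higher and lower genes were 277 and 2301 with no minimum of UMIs, 337 and 410 at 1.5-fold, and 48 and 1 with at least 200 UMIs. Which side held more genes thus depended on the setting. Ratios had 0.5 UMI added to both sums. Low sums held 165552 and 263087 UMIs against 1130529 and 1411501 in members. The added 0.5 UMI therefore lowers the ratio of a scarce gene, most of all with no minimum. The count of 2301 is thus not one of genes measured as lower. In 72 of the 131 (0.752% of the genes tested) and in 10 of the 58 (0.104%) the intervals of both libraries also lay clear of 0. The higher side was therefore the better measured one. A low sum of 0 UMIs entered 34 of the 131 genes, and 108 genes reached 2-fold with such a sum set at 3 UMIs. The median log2 ratio over all genes was -0.10 for the female and -0.08 for the male library, and 56.1% of genes had the same sign in both.

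The 20 largest differences outside the rule were ranked by the library with the ratio nearer to 0, and Cldn14, Scube1, Dchs2 and Has2 were among them. Cldn14, a claudin of tight junctions, had 37 UMIs in female and 63 in male members and 0 in low nuclei of either library, at least 1.81-fold and 3.91-fold higher. Scube1, a secreted and membrane-bound glycoprotein gene, had 98 UMIs against 0 in the female library, at least 4.78-fold higher, and 97 against 3 in the male library, a log2 ratio of 2.38 (1.001 to 4.89). Dchs2, a large cadherin gene, had 47 against 0 UMIs, at least 2.29-fold higher, and 57 against 1, with 2.84 (0.87 to 8.74). The low sums, which hold fewer UMIs in all, had at most 3 UMIs of each of these 3 genes, so their level there is poorly measured. Has2, a hyaluronan synthase gene, had 46 against 0 UMIs in the female library, at least 2.25-fold higher, and 47 against 1 in the male library, with 2.56 (0.58 to 8.46). Has2os, a transcript annotated on the other strand and overlapping Has2, was at 1.01 and 0.758 in members and 0.242 and 0.152 in low nuclei, and its counts and those of Has2 are uncertain where the pair shares reads.

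Slit3, a secreted guidance protein gene, was among the best measured of the 20. Slit3 (chr11:35121224-35708507) was at 4.05 in female members (458 UMIs) and 1.03 in low nuclei, a log2 ratio of 1.94 (1.29 to 2.77). In the male library it was at 2.86 (403 UMIs) and 0.722, a log2 ratio of 1.95 (1.32 to 2.73). The difference was thus about the same size in the 2 libraries. Slit3 had a thinned UMI in 25.5% of female and 22.7% of male members and in 7.95% and 5.08% of low nuclei. The macrophage-marker nuclei had one in 4.20% and 2.50%.

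Spp1, the gene of osteopontin, a secreted glycoprotein, was at 2.54 in female and 3.69 in male members and at 0.664 and 0.912 in low nuclei. Its log2 ratios were 1.87 (1.07 to 2.95) and 1.99 (1.43 to 2.67). Sptbn5, a spectrin gene that GENCODE lists on mm10 as a processed transcript, was at 2.26 and 1.74 in members and 0.483 and 0.114 in low nuclei, with 2.14 (1.22 to 3.45) and 3.71 (2.36 to 6.22). P3h2, a collagen prolyl 3-hydroxylase gene, was at 1.43 and 1.45 in members and 0.302 and 0.114 in low nuclei, with 2.11 (0.99 to 3.89) and 3.45 (2.10 to 5.96). For all 3, the intervals lay above 0 in both libraries. P3h2 was at 2.97 (2.38 to 3.65) and 1.54 (0.98 to 2.29) in nuclei with macrophage markers, above the female members and close to the male ones, whereas Sptbn5 had 1 and 0 UMIs there.

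Plk5, a polo-like kinase gene, was at 0.840 and 0.971 in members and 0.121 and 0.152 in low nuclei, with log2 ratios of 2.48 and 2.51. Adamts9, an ADAMTS protease gene, had 68 UMIs in female members and 0 in low nuclei, at least 3.32-fold higher, and 74 against 4 in the male library, a log2 ratio of 1.63 (0.37 to 3.70). Lctl, a gene of the klotho family, had 58 against 0 UMIs, at least 2.83-fold higher, and 68 against 1, with 3.09 (1.14 to 8.99). Cmya5, a gene best known from muscle, was at 0.716 and 0.390 in members and 0.121 and 0.0760 in low nuclei. The other 7 genes of the 20 (Prr7, E2f3, Smarcd3, Etnppl, Ccdc15, Slc9a7 and Slc22a22) had between 15 and 49 UMIs in the members of a library and at most 2 in the low nuclei. Their size is therefore poorly measured.

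**Figure D3:**
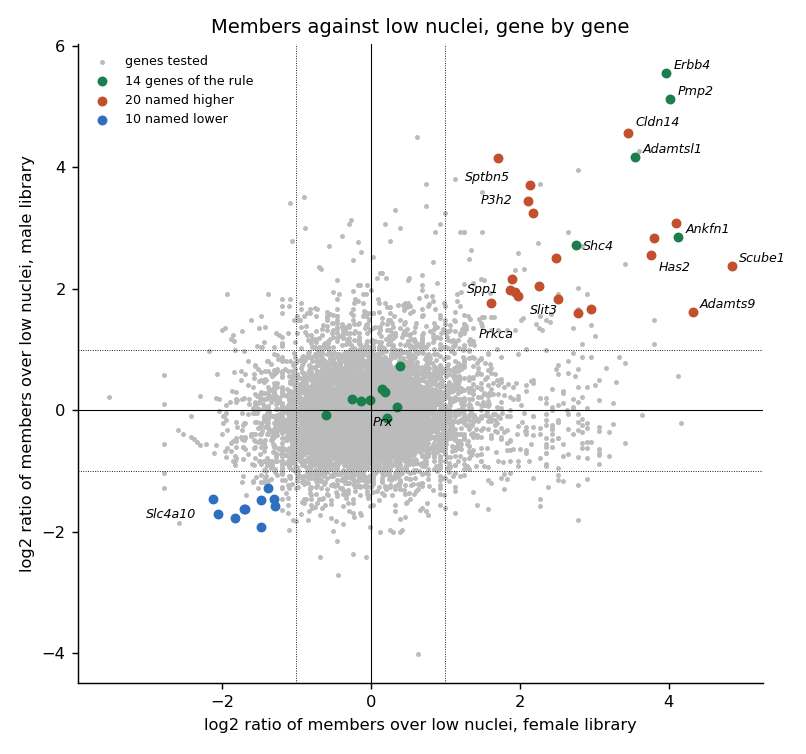
log2 ratio of the level in members over that in low nuclei in the female library (horizontal) and the male library (vertical), 1 point for each of 9571 genes, with the genes of the rule, the 20 named higher and the 10 named lower genes in colour; dotted lines mark 2-fold. Most genes form a cloud around 0, while 131 genes lie past 2-fold in both libraries at the upper right and 58 at the lower left.

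The 10 genes named as lower in members were mostly scarce. Slc4a10, a bicarbonate transporter gene, was at 0.867 in female and 0.397 in male members and at 3.56 and 1.29 in low nuclei, with log2 ratios of -2.04 (-2.52 to -1.55) and -1.71 (-2.34 to -1.04). Slc47a1, an organic cation exporter gene, was at 0.513 and 0.248 in members and 1.63 and 0.760 in low nuclei, with -1.68 (-2.35 to -0.95) and -1.63 (-2.45 to -0.75). Both belong to the list of barrier fibroblast markers, and few nuclei held them. When the nuclei were divided on Adamtsl1, Erbb4 and Pmp2 alone, a division added after the values were seen, the female log2 ratio turned to 1.77 for Slc4a10 and 1.20 for Slc47a1. In the low nuclei of the female library 9 nuclei carried all 59 UMIs of Slc4a10, 31 of them in 1 nucleus, and without the top nucleus of each sum the log2 ratio was -1.46 for the female and -1.15 for the male library. The barrier fibroblast list of 7 genes summed to 4.25 and 3.02 in members and 9.18 and 4.49 in low nuclei, led by Itih5 in members. In low nuclei of the female library 1 of the 7 genes was at 0. The part of these markers in the other differences was not tested. Ror2, a receptor for Wnt5a, was at 0.301 and 0.163 in members and 0.966 and 0.494 in low nuclei, and its female log2 ratio turned to 0.089 under that division, as that of Lrrk1 did to 1.09. Carhsp1, Lrrk1, Mib2, Lpin2, Cars2, Cox8b and Grid1 had at most 14 UMIs in a low sum. Under the division on Adamtsl1, Erbb4 and Pmp2 the log2 ratio also turned for Grid1 in the female (0.90) and Cars2 in the male library (0.11). With at least 25 UMIs per 10000 of the first step's genes, the female ratio turned to 0.12 for Ror2 and 0.94 for Lrrk1.

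Levels of several genes outside the rule were highest in the nuclei with the largest second sums, as the plot of levels over bins of the second sum shows. Slit3 was at 1.10, 0.954, 2.002, 2.80, 4.39 and 6.27 in female nuclei with a second sum of 0, 1, 2 to 3, 4 to 7, 8 to 15 and 16 or more. In male nuclei it was at 0.617, 0.784, 1.55, 2.21, 2.98 and 4.66. Prkca, the gene of protein kinase C alpha, was at 10.7 and 5.86 with a second sum of 0 and at 44.8 and 36.7 with 16 or more. Sptbn5 was at 0.367 and 0.103 with a sum of 0 and at 4.72 and 3.39 with 16 or more. Prx, on which all these nuclei were chosen, lay between 7.14 and 8.82 for the female and between 4.93 and 6.34 for the male library. The lowest bin held 48 and 47 nuclei and the highest 56 and 58, and the median depth went from 1543 and 1852 UMIs to 3835.5 and 3973, so depth moved with these bins. Among nuclei of 2000 to 8000 UMIs only, the log2 ratio of members over low nuclei was 2.69 and 2.38 for Slit3, 4.06 and 4.41 for Sptbn5 and 1.78 and 2.15 for Prkca. This range held 30 female and 50 male low nuclei. Of the low nuclei of any depth, 5 female and 3 male ones had a UMI of Sptbn5, so its ratios here are poorly measured.

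**Figure D4:**
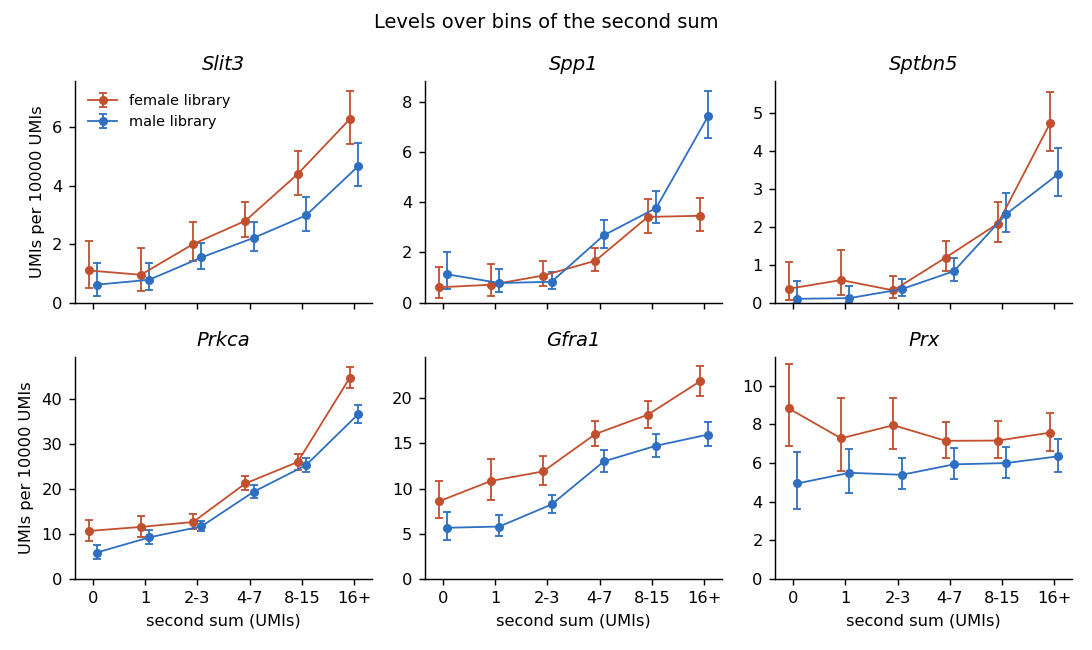
Level in UMIs per 10000 UMIs (vertical axes, from 0) of 6 genes outside or inside the rule over bins of the second sum (horizontal axis) in the female and male library; bars are 95% Poisson intervals. Slit3, Spp1, Sptbn5, Prkca and Gfra1 are highest in the bin with the largest sums. Prx, a gene on which all these nuclei were chosen, lies between 7.14 and 8.82 for the female and 4.93 and 6.34 for the male library.

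Members were therefore also divided by whether they carried a UMI of Adamtsl1, Erbb4 or Pmp2, a division made after the values above had been seen. It gave 377 members with such a UMI (168 female and 209 male) and 420 with Shc4 or Ankfn1 only (198 and 222). Genes outside the rule were not all alike in this. Dchs2 had 47 female and 57 male UMIs in the members with 1 of the 3 genes and 0 in the others. Cldn14 had 37 and 62 UMIs against 0 and 1. Sptbn5 was at 3.40 and 2.85 against 0.756 and 0.404, and P3h2 at 2.15 and 2.47 against 0.490 and 0.233. Spp1 was at 3.43 and 5.84 against 1.37 and 1.12, and Slit3 at 5.55 and 4.03 against 2.08 and 1.45. Prkca was at 35.5 and 32.9 against 17.2 and 11.9. For other genes the sets were closer. Ccdc15 had 16 and 16 UMIs against 10 and 9, and Smarcd3 had 12 and 19 against 7 and 9, with intervals of the ratio that held 0 in both libraries. Prr7 had 9 and 20 against 6 and 5, with an interval that held 0 for the female library. Gfra1 was at 18.4 and 15.5 against 16.4 and 10.1. The oligodendrocyte list summed to 0.780 (0.579 to 1.03) and 1.17 (0.942 to 1.44) against 0.592 (0.397 to 0.851) and 0.451 (0.302 to 0.648). Mitochondrial transcripts were at 213 and 164 against 263 and 196, and ribosomal protein transcripts at 161 and 188 against 197 and 243. The neuron list summed to 33.8 and 64.0 against 39.9 and 74.8, and the satellite glia list to 9.78 and 10.8 against 12.2 and 14.9. The part of these sums in the differences was not tested. Prx, on which both sets were chosen, was at 7.11 and 6.26 against 7.76 and 5.51. The members with 1 of the 3 genes had a median of 2785 and 2881 UMIs and the others 1915 and 2060.

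**Figure D5:**
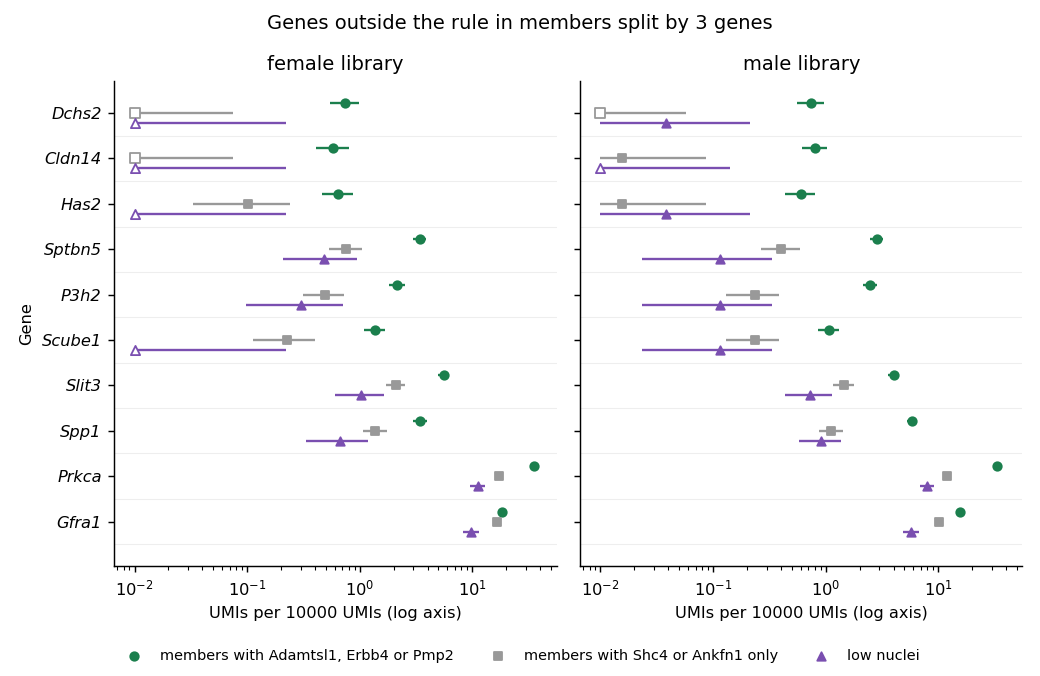
Level in UMIs per 10000 UMIs (horizontal log axis) of 10 genes outside the rule in members with a UMI of Adamtsl1, Erbb4 or Pmp2, in members with Shc4 or Ankfn1 only and in low nuclei, in each library; lines are 95% Poisson intervals and open symbols, drawn at 0.01, mark sums with 0 UMIs. For 9 of the 10 genes the members with 1 of the 3 genes stand well above the other 2 sets, and for Gfra1 the difference is small in the female library.

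When all nuclei that passed the first step were divided on Adamtsl1, Erbb4 and Pmp2 alone, with at least 2 UMIs (115 female and 156 male nuclei) against 0 (279 and 334), 134 of 9054 genes (1.48%) were at least 2-fold higher in both libraries and 37 (0.409%) at least 2-fold lower. Of the 131 genes above, 56 were among the 134. All nuclei with at least 2 UMIs are members, and low nuclei without these genes are in the set with 0, so the divisions share nuclei and these counts are no independent support. Under this division Cldn14 had 34 UMIs against 0 for the female and 60 against 1 for the male library. Cnmd, which codes for chondromodulin, had 23 against 2 and 45 against 6. Mobp, a gene of the oligodendrocyte list, had 11 against 1 and 24 against 6, with log2 ratios of 3.40 (1.14 to 9.35) and 2.48 (1.24 to 4.15). Lox, the gene of lysyl oxidase, had 27 against 7 and 45 against 9. P3h2 was at 2.76 against 0.443 and 2.85 against 0.202, and Sptbn5 at 4.26 against 0.712 and 3.30 against 0.304. On the lower side stood Sgcz, the gene of zeta-sarcoglycan, at 0.631 against 2.21 and 1.05 against 4.14, and Slc7a2, an amino acid transporter gene, at 1.39 against 3.57 and 0.984 against 2.51. Only 1 of the 58 lower genes above was among the 37.

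Gene lists were described by the number of genes at least 1.5-fold higher in members in both libraries, which held for 3.52% of all genes tested, and by the number at least 1.5-fold lower, which held for 4.28%. In the 4 lists of the myelin program the counts past this fold were low, as they were over all genes. Of 10 compact myelin genes, 1 (Pmp2, a gene of the rule) was higher and 1 (Mpzl1) lower, with medians of 0.23 and 0.32 on the log2 scale (0.24 and 0.35 with a sum of 0 set at 3 UMIs and none added). Pmp22 had a log2 ratio of 0.57 (0.42 to 0.73) and 0.70 (0.58 to 0.83). Of 15 genes of uncompacted myelin, the paranode and the node, 1 was higher, with medians of -0.13 and 0.07. That gene was Gjb1, the gap junction gene connexin 32, with 29 and 35 UMIs in members and 1 and 1 in low nuclei. None of 20 genes of the dystroglycan and basal lamina complex passed 1.5-fold in either direction, with medians of 0.21 and 0.35, and Utrn, the gene of utrophin and the one with most UMIs, had log2 ratios of 0.20 and 0.22. Of 25 genes of cholesterol and myelin lipid synthesis, Elovl1, which elongates very long-chain fatty acids, was higher (0.575 and 0.616 against 0.121 and 0.228), Fads2 was lower and 23 were neither, with medians of -0.12 and -0.03. Elovl1 had 2 and 6 UMIs in low nuclei, and its female log2 ratio turned to -0.14 under the division on Adamtsl1, Erbb4 and Pmp2 alone.

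Lists of genes that regulate or mark Schwann cell states likewise had few genes past 1.5-fold, at shares to be read against those over all genes. None of 19 regulators of myelination passed 1.5-fold, with medians of 0.10 and -0.10 (0.07 and -0.02 with a sum of 0 set at 3 UMIs). Egr2, the master regulator of peripheral myelination, was at 0.708 and 0.694 in members and 0.483 and 0.418 in low nuclei. Of 10 measured genes of immature and repair Schwann cells, none was higher and 2 (Bdnf and Id2) were lower, with medians of -0.65 and -0.19. The intervals of Bdnf and Id2 held 0 in both libraries. Of 8 measured genes of non-myelinating Schwann cells none passed, with medians of -0.55 and -0.19, and the list summed to 14.8 and 19.1 in members and 20.5 and 21.6 in low nuclei. Ncam1, a gene of both lists, had log2 ratios with intervals of -1.03 to -0.21 for the female and -0.62 to 0.04 for the male library. Over all genes the medians were -0.10 and -0.08 (-0.03 and -0.03 with a sum of 0 set at 3 UMIs and none added).

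In neuregulin and ErbB signalling, 4 of 33 measured genes were higher and 1 (Akt2) lower, with medians of -0.15 and -0.08. The intervals of Akt2 held 0 in both libraries. Erbb4 and Shc4 are genes of the rule. Prkca was at 27.6 in female and 23.3 in male members and at 11.1 and 7.98 in low nuclei, with log2 ratios of 1.31 (1.10 to 1.53) and 1.54 (1.35 to 1.76). Errfi1, a feedback inhibitor of ErbB receptors, was at 0.619 and 0.595 in members and 0.121 and 0.190 in low nuclei, with 2.05 (0.45 to 5.43) and 1.52 (0.37 to 3.31). The neuregulin receptor genes Erbb2 and Erbb3 passed 1.5-fold in neither direction in both libraries. Erbb3 had log2 ratios of -0.52 (-1.09 to 0.13) and 0.10 (-0.42 to 0.70), and Erbb2, with 30 and 21 UMIs in members, of 0.35 (-1.13 to 2.91) and -0.90 (-2.13 to 0.64).

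In the ADAMTS family, 4 of 12 measured genes were higher, namely Adamtsl1 of the rule, Adamts9, Adamts6 and Adamtsl5, and Adamts12 was lower, with medians of 0.15 and 0.15 (0.28 and 0.30 with a sum of 0 set at 3 UMIs). Adamts6 had 55 and 51 UMIs in members and 3 and 2 in low nuclei. Of 32 Slit, Robo and semaphorin genes, Slit3, Slit2, Sema3g and Sema6c were higher and Plxna4 and Sema4d lower, with medians of 0.12 and -0.06 (0.24 and 0.00 with a sum of 0 set at 3 UMIs). Slit2, a paralogue of Slit3, was at 5.50 and 5.63 in members and 2.17 and 0.988 in low nuclei, with log2 ratios of 1.32 (0.85 to 1.87) and 2.48 (1.95 to 3.13). Slit2 and Slit3 were thus higher together, while Sema5a, which codes for a membrane semaphorin, had log2 ratios of 0.53 and 1.07.

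Of 12 GDNF-family and neurotrophin genes, Gfra1 was higher and 2, Bdnf among them, were lower, with medians of -0.25 and -0.05. Gfra1, a co-receptor for GDNF, was at 17.5 and 13.1 in members, 9.73 and 5.74 in low nuclei and 1.11 and 0.837 in the nuclei that failed the first step. Its log2 ratio of members over low nuclei was 0.85 (0.62 to 1.09) and 1.18 (0.95 to 1.43). Of 5 measured fatty acid-binding protein genes 1, Pmp2, was higher, with medians of -0.15 and -0.36 (-0.13 and -0.32 with a sum of 0 set at 3 UMIs), and Fabp5 had log2 ratios of -0.62 and -0.47. None of 5 measured immediate early and heat shock genes passed, with medians of -0.63 and 0.14 (-0.66 and 0.24 with a sum of 0 set at 3 UMIs).

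Markers of other cell types were summed in the same nuclei. The neuron list of 17 genes was at 36.5 in female and 68.9 in male members, at 46.1 and 85.1 in low nuclei and at 61.1 and 90.9 in the nuclei that failed the first step, with Sncg holding most UMIs in members and no gene at 0. The satellite glia list of 8 genes was at 10.8 and 12.7 in members and 13.5 and 16.4 in low nuclei, led by Apoe. The fibroblast list of 9 genes was at 22.8 and 17.4 in members and 23.3 and 17.3 in low nuclei, led by Dcn. Endothelial markers were at 1.48 and 1.48 against 1.63 and 1.82, led in members by Ptprb and Flt1, mural cell markers at 1.86 and 1.31 against 1.39 and 0.988, led by Pdgfrb, and macrophage markers at 1.83 and 1.74 against 2.48 and 2.62, led by Rbpj. Adipocyte markers were at 1.28 and 0.241 against 1.81 and 0.266, led by Ucp1 in female and Lipe in male members. Every gene of these 7 lists had a UMI in the members of both libraries, and in low nuclei 3 female and 2 male sums of the 8 mural genes, 1 female sum of the macrophage genes and 1 male sum each of the fibroblast and adipocyte genes were at 0. Of the 12 oligodendrocyte genes 2 were at 0 in the members of each library.

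By single genes, none of 17 neuron, 7 satellite glia, 7 endothelial, 3 mural, 6 macrophage and 3 oligodendrocyte genes measured passed 1.5-fold in both libraries. Their medians were -0.19 and -0.29, -0.66 and -0.36, -0.33 and 0.02, 0.04 and 0.46, -0.33 and -0.51, and -1.12 and -0.21 in that order. Of 9 fibroblast genes Col1a1 was higher and Pdgfra lower, with medians of -0.08 and 0.04 (-0.07 and -0.07 with a sum of 0 set at 3 UMIs). Of 6 barrier fibroblast genes 2 were lower, with medians of -0.59 and -1.04, and of 2 adipocyte genes Lipe was higher and Ucp1 lower, with medians of 0.40 and -0.79. The intervals of Pdgfra, Lipe and Ucp1 held 0 in both libraries. Lipe had 1 UMI in the low nuclei of each library, and Ucp1 had 2 UMIs in male members and 2 in male low nuclei. Mitochondrial transcripts were at 234.5 and 178 in members and 272 and 193 in low nuclei, and ribosomal protein transcripts at 176 and 213 against 203 and 235. The part of these transcripts in the differences between members and low nuclei was not tested. Without nuclei that held other-type markers (at least 4 UMIs and 15 per 10000 of the macrophage, endothelial, fibroblast, adipocyte or mural list), 235 of 366 female and 297 of 431 male members remained. Of the low nuclei, 58 of 89 female and 72 of 118 male ones remained. Then 133 genes were at least 2-fold higher, 69 of them among the 131. Slit3 then had log2 ratios of 2.57 and 2.14, Spp1 of 1.40 and 2.31, and Sptbn5 of 2.59 and 3.13.

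Members of the 2 libraries could be compared only as 1 library against 1. Xist was at 8.46 in female members and had 1 UMI in male members, and Ddx3y had 0 and 103 UMIs, so both followed the library's sex. The genes of the second sum, on which the members of both libraries were chosen with the same thresholds, had log2 ratios of male over female of -0.05 (-0.25 to 0.16) for Adamtsl1, 0.07 (-0.11 to 0.24) for Erbb4, 0.43 (-0.06 to 0.95) for Pmp2, -0.29 (-0.41 to -0.16) for Shc4 and -0.36 (-0.46 to -0.25) for Ankfn1. Of 5369 genes with at least 100 UMIs in members, 110 (2.05%) were at least 2-fold higher in the male and 35 (0.652%) in the female library. Among the nuclei that failed the first step, 21 of the 110 were also at least 2-fold and 77 at least 1.5-fold higher in the male library, which held for 0.540% and 8.55% of the 5369 genes. Of the 35, 19 were there also at least 2-fold and 27 at least 1.5-fold higher in the female library, which held for 1.38% and 7.25% of these genes. Examples were Dbh, the enzyme that makes noradrenaline, at 0.0885 in female and 1.07 in male members, and Slc6a2, the noradrenaline transporter, at 0.203 and 1.35, which had log2 ratios of 2.996 and 2.69 among the nuclei that failed the first step. Prl, the gene of the hormone prolactin, was at 2.08 in female and 0.0921 in male members, and Kcnd2, a potassium channel gene, at 4.66 and 0.269. Whether these UMIs came from the members' own RNA or from free RNA was not tested.

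Of 8 barcode sequences found in both libraries, 0 were members. The feature named EGFP in the deposited gene list had 0 UMIs in members and low nuclei of both libraries, which allows up to 0.0265 UMIs per 10000 in female and 0.0213 in male members, taking 3 UMIs as the limit. It had 1 UMI among the nuclei that failed the first step.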

How the data were processed

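Nuclei of vagus nerve ganglia were sequenced as 2 libraries. Per the labels and the study's methods, the authors aligned the reads with Cell Ranger 7.1.0 to mm10 with an added transgene sequence, introns included, removed debris with DIEM and merged the libraries, and the deposited values are UMI counts per gene and nucleus. The methods name that sequence as a human growth hormone poly(A) of AAVrg-Cre, whereas the added entry of the deposited gene list is named EGFP. Barcodes were assigned to a sex by the number of nuclei in each library, which equalled the number the study states.

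Counts were summed over nuclei of a class and library (Python 3.11.15, numpy 2.4.6, scipy 1.17.1, pandas 2.3.3, matplotlib 3.10.9). Ratios had 0.5 UMI added to both sums, and genes needed 40 UMIs over the 4 sums. Intervals were exact (Poisson, Clopper-Pearson, or conditional binomial for ratios). Classes were not adjusted for doublets, and no doublet caller was run. The named genes were those of the rule, the 20 highest and 10 lowest ratios outside it, ranked by the library with the ratio nearer to 0 and without clone names, and called, abundant or extreme genes of the 24 lists. Members and lists were chosen with earlier results of these data known. The scripts were tested on simulated data. Alternatives changed the thresholds, depth, size factors, minimum and UMIs added. Names and coordinates came from GENCODE, promoters from RefSeq. Some items are not reported here.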

Additional observations from a re-analysis of the deposited data

Results flagged for a closer look

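Nrg1, the gene of neuregulin 1, had a log2 ratio of members over low nuclei of 2.38 for the female and -1.25 for the male library, so the 2 libraries differed in direction. In the female library 1 member held 130 of the 195 UMIs of Nrg1 in members, and in the male library 1 low nucleus held 39 of the 62 UMIs in low nuclei. Without the nucleus with most Nrg1 UMIs in each class, the log2 ratio was 1.04 (-0.22 to 3.12) for the female and -0.07 (-0.69 to 0.66) for the male library. The difference between the libraries was not tested.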

How the results depend on the processing

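The share of the nuclei passing the first step that were members, 80.4% for the female and 78.5% for the male library, was 67.9% and 65.6% with a second sum of at least 3, 86.9% and 84.5% among nuclei of 2000 to 8000 UMIs, and 73.9% and 68.3% after thinning to 1000 UMIs. The count of 131 genes at least 2-fold higher was 277 with no minimum of UMIs, 48 with at least 200 UMIs and 337 at 1.5-fold, and lay between 132 and 169 under the other settings. With nuclei of 2000 to 8000 UMIs, 169 were called, 73 of them among the 131. The count of 58 lower genes was 120 among nuclei of 2000 to 8000 UMIs (12 of them among the 58), 2301 with no minimum, 1 with at least 200 UMIs, 410 at 1.5-fold and 37 with the sum of Adamtsl1, Erbb4 and Pmp2 alone, a division added after seeing the data. The lower genes thus depended on the setting, and the cause was not tested.

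Of 1642 recomputed ratios of 103 genes, 1502 lay within the counting interval of the main ratio, 131 lay outside it, and 9 were counted as changed in sign. A change of sign was counted only for genes at least 2-fold higher or lower in both libraries in the main setting. Sign changes of the other genes are within the first 2 counts. Under the sum of Adamtsl1, Erbb4 and Pmp2 alone, the female log2 ratio was 1.77 for Slc4a10, 1.20 for Slc47a1, 0.089 for Ror2, 1.09 for Lrrk1, 0.90 for Grid1 and -0.14 for Elovl1, and the male one was 0.11 for Cars2. With at least 25 UMIs per 10000 of the first step's genes, the female ratio was 0.12 for Ror2 and 0.94 for Lrrk1. Low sums of 165552 and 263087 UMIs limit the precision of scarce genes. No paired analysis was possible because each sex had 1 library and no test was made, and no replicate could be left out.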

Other observations

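Among genes with at least 100 UMIs in members, 3 differed at least 4-fold between the libraries in members and less than 1.5-fold in the nuclei that failed the first step. They were picked after their values were seen, and no difference was tested. Fgf14, a fibroblast growth factor homologous factor gene, was at 6.93 in female and 1.23 in male members, a log2 ratio of male over female of -2.49 (-2.74 to -2.25), and at 18.6 and 15.8 in the nuclei that failed the first step. In low nuclei the log2 ratio of Fgf14 was -1.55, and 1 member held 6.05% of its UMIs in members. Gpc5, a glypican gene, had 13 UMIs in female and 113 in male members. Of the UMIs of both libraries together, 1 male member held 54.8%. In low nuclei Gpc5 had 8 and 34 UMIs, a log2 ratio of 1.35. Pcdh11x, a protocadherin gene, had 21 and 115 UMIs, and 1 male member held 33.1% of those of both libraries together. In low nuclei it had 6 and 17 UMIs, a log2 ratio of 0.76. The ratios of Gpc5 and Pcdh11x without these single nuclei were not computed, so a 4-fold difference may rest on them.

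Ratios of members over low nuclei also moved with gene length. Over genes with at least 200 UMIs ranked by length and divided into 4 sets, the median log2 ratio was -0.18 for the female and -0.17 for the male library for the shortest set (860 genes) and 0.05 and 0.05 for the longest set (860 genes).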
